A study of Drosophila melanogaster with 2 samples.

Results

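Deep intronic peaks of the zinc finger protein CG18011 were those that lay inside a gene, away from every annotated start of transcription and outside every exon. They were taken from the authors' optimal list after a filter on how well replicates agree, the irreproducible discovery rate (IDR). A member had its summit more than 2000 bp from the nearest transcript start of any gene, within a transcript and in no exon. Of 3290 IDR peaks, 475 met this rule, 14.4% (95% exact binomial interval 13.3 to 15.7). The peaks came from chromatin immunoprecipitation with sequencing (ChIP-seq) on Drosophila melanogaster of the transgenic strain CG18011-GFP, which stably expresses CG18011 with GFP fused to its C terminus. Whole embryos of both sexes, collected over 0 to 24 h, were used with an antibody against GFP, so that all embryonic stages and tissues were mixed. There was 1 group of 2 libraries, biological replicates 1 and 2, and no control library was analysed here. Both libraries carry the fusion, so nothing here compares embryos with and without it. Whether CG18011 itself contacts the DNA at a peak was not tested. The depth behind a single peak is unknown, as no read counts were at hand. All positions are 1-based on dm6.

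Introns are the stretches of a gene that are transcribed and then spliced out of the RNA. In flies most introns are short, but long introns are frequent in genes of development and of the nervous system. Such introns often hold enhancers, stretches of DNA where transcription factors bind and act on a promoter at a distance. First introns in particular are known for regulatory sequence. C2H2 zinc finger proteins, to which CG18011 belongs, bind DNA through small domains that each contact a few bases.

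To show what a deep intronic site looks like, the 81 bases centred on the summit are given for the 6 strongest members on the arms 2L, 3L, 3R and X, read from the RefSeq dm6 assembly on the plus strand. Capitals mark a match, on either strand, to one of 20 words of 8 bases that ranked highest in the 329 strongest IDR peaks that are not members.
sick, 2L:19887636-19887716: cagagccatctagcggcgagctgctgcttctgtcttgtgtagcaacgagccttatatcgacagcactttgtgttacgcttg
Eip75B, 3L:17988240-17988320: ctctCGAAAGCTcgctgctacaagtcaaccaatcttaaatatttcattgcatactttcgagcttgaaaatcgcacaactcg
pb, 3R:6709006-6709086: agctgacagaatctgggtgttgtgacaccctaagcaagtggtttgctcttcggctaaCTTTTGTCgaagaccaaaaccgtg
CG14669, 3R:5438919-5438999: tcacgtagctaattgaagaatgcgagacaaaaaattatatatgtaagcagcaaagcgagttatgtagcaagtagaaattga
snu, 3R:28677860-28677940: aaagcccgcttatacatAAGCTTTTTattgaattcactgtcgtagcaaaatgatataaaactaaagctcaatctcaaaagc
Prps, 3L:9691589-9691669: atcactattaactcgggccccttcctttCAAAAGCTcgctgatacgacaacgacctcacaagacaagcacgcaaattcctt
The members in Eip75B, pb, snu and Prps held such a word, and those in sick and CG14669 held none within these bases.

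The first of those 20 words, AGCTTTTG, was more frequent at members than at weaker intronic sites, as described below. On the same arms as above, the next 4 members with it within 40 bp of the summit are shown with that word in capitals. They are given in the order of signal and after Prps.
CanA-14F, X:16574274-16574354: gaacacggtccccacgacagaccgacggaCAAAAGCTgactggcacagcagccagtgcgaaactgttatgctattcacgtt
RhoGAP18B, X:19161147-19161227: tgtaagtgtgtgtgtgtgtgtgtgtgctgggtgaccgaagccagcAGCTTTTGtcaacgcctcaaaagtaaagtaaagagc
CG33639, X:18218947-18219027: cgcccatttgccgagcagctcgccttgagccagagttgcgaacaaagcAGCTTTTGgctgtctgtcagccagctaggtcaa
CG31145, 3R:23646328-23646408: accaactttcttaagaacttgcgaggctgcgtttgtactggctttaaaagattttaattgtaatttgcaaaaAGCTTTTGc
Words of another kind, with the core CACTG, are shown in 4 members on the same arms. They were chosen from members on 2 of the arms, among them 2L, where aop lies. On the arms not used for that choice, TCAGTGCA and CACTGAGA were no more frequent at members than at candidates, as given below. Capitals mark TCAGTGCA, CACTGAGA or CTCAGTGC on either strand, and members with the most such bases are given first.
aop, 2L:2163682-2163762: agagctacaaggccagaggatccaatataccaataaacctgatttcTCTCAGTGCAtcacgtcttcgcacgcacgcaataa
mew, X:13232626-13232706: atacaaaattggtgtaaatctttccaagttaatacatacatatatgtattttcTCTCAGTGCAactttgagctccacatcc
CG34417, X:6549838-6549918: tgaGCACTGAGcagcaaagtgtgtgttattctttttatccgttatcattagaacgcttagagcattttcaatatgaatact
bves, X:21059101-21059181: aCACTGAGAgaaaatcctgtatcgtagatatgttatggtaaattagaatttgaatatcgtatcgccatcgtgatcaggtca
Where capitals run on for 10 bases, as in aop and mew, the 3 words overlap.

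Deep intronic sequence was plentiful and sparse in members. It made up 30.9% of the 6 arms, 41400651 bp, and held 11.5 members per Mb. The pooled list, made by the authors from both libraries before the replicate filter, had 8014 peaks of the same class, of which 475 were in the IDR list, 5.93% (interval 5.42 to 6.47). Over all 29999 pooled peaks on these arms the share in the IDR list was 11.0%. That share was 19.7% for pooled peaks within 500 bp of a start site, 6.0% for intergenic peaks over 2000 bp from one and 3.21% for peaks in exons as far away. The 7409 pooled deep intronic peaks that overlapped no IDR peak served as candidates for comparison. They were 28.7% of all 25782 such pooled peaks, and the odds ratio of being deep intronic, IDR list over candidates, was 0.418 (95% conditional exact interval 0.377 to 0.463). The signal of the candidates reached 179 at most, just under the 180 of the weakest member, so members against candidates is also strong against weak. Peaks are not replicates of a condition, and intervals here cover counting error alone.

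Most members were weak for the IDR list. Signal is a score per peak as deposited by the authors, in a unit that no source used here states, and it chose the list, so it is described without a test. It ran from 180 to 18119 in members, with a median of 248 and quartiles of 207 and 333, against a median of 288 in the other 2815 IDR peaks. Below the median of the whole list, 279.9, lay 294 members, 61.9%. More than 10 times that median was reached by 8 members, 1.68%, against 145 other IDR peaks, 5.15%. The 9 strongest members held 36.4% of the members' summed signal, so that a few sites stand far above a broad base.

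The strongest deep intronic site lay in sick, the fly member of the neuron navigator family. Its signal was 3558 in replicate 1 and 14623 in replicate 2. The libraries differ in scale, so the values were divided by the median of all IDR peaks in that library, 64.6 and 222.8, and on this relative scale the sick peak stood at 60.4 ± 7.43 (SD, n = 2). The SD was 12.3% of the mean, so the site stood far above the usual peak in both libraries. Eip75B, an ecdysone-induced nuclear receptor, followed with 3008 and 13522, or 53.6 ± 9.96 on the relative scale. Next came pb, the Hox gene proboscipedia, with 2701 and 10645, or 44.8 ± 4.20, and CG14669 with 2632 and 10437, or 43.8 ± 4.30. These 4 sites stand apart from all other members in both libraries.

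Below a gap came snu, which encodes an ABC transporter of the cuticle barrier, with 991 and 4583. Prps, a phosphoribosyl pyrophosphate synthetase, had 681 and 3425. CG8888 had a pair of summits 243 bp apart within 1 interval, of signal 4122 and 3849, in an intron of only 332 bp, the shortest that held a member. NimA, of the Nimrod family of phagocytic receptors, had 585 and 2127. Its 9.31 ± 0.339 on the relative scale was the last value above 5 among the members' means. From CG8180 down to sbb, the tenth to the twentieth member by signal, relative signal lay between 3.17 and 4.63. That group held Vav, Pdk1, a kinase upstream of Akt, Tlk, a Tousled-like kinase, and CanA-14F, a catalytic subunit of calcineurin. It also held Ctr1A, a copper transporter, the Hox gene Ubx with 3.20 ± 0.0930, the corepressor sbb with 3.17 ± 0.0596, CG12769, CG32486 and CG46321.

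The 8 members above 10 times the median differed in place from the rest, as a description of few sites. Their median intron was 4630 bp against 11016 bp for the other 467, and 2 of 8 lay in a first intron against 285 of 467. Their median width was 1004 bp against 416 bp. The pair in CG8888 shares 1 interval, so the 8 stand for 7 intervals, with a median intron of 4784 bp and a median width of 1164 bp. The summit of another interval lay within 10 kb of 6 of the 7.

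**Figure D1:**
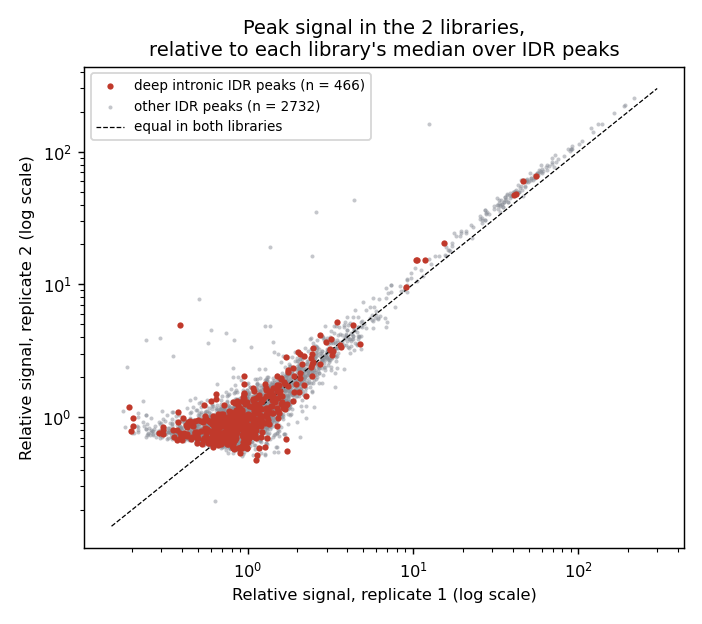
Signal of IDR peaks in replicate 1 (x) and replicate 2 (y), each divided by the library's median over IDR peaks, both axes logarithmic, for 466 deep intronic peaks (red) and 2732 other IDR peaks (grey) with a peak of both libraries at the summit. The sites in sick, Eip75B, pb and CG14669 form a separate group at the upper right, and most members lie around 1.

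Reproducibility of members was close to that of the other IDR peaks. All of them had passed the same filter on replicate agreement, which limits how far they can differ, so this is a description only. Both libraries had a peak over the summit of 466 members, while 4 lacked one in replicate 1 and 5 in replicate 2. The SD over the libraries was a median of 15.04% of the mean in members and 14.0% in other IDR peaks. Among the 3290 strongest peaks of replicate 1 were 381 members, 80.2%, and among those of replicate 2 were 429, 90.3%. The same shares for IDR peaks within 500 bp of a start site were 80.0% and 94.5%. The largest spread was that of the second summit in Vav, which shares its interval and its replicate 2 peak with the stronger one, and of a summit in tara with 12.3 in replicate 1 and 263 in replicate 2.

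Members were spread over 331 host genes. These were 7.64% of the 4333 genes with any deep intronic sequence. Of the hosts, 323 were protein-coding, and 8 long noncoding RNAs, among them lncRNA:let7C and lncRNA:bxd, held 1 member each. A single member was found in 240 hosts, 2 in 62 and 3 or more in 29, which together held 111 members. At 282 members, 59.4%, every annotated transcript of the host ran across the site. A second gene also spanned the summit at 16 members.

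Raf, the kinase that links Ras to the MAP kinase cascade, hosted the most members, 7, all in 1 intron of 43637 bp on X. Only 6 candidates lay in Raf, so 53.8% of these peaks were members. Their signal ran from 198 to 739, and the summits fell within 8790 bp, from 2265 to 11055 bp after the 5′ end of the gene. The strongest had 177 in replicate 1 and 561 in replicate 2, and the weakest had 19.96 in replicate 1 and 165 in replicate 2. The 7 sites thus lie together in the 5′ part of the intron, and none stands far above the usual IDR peak. Only 24504 bp in Raf counted as deep intronic sequence, so the rule itself limits where in the intron members can lie.

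The corepressor sbb had 6 members and 33 candidates in 1 intron of 49364 bp. Also 6 were found in tara, a nuclear protein of the trithorax group, with 24 candidates, and in shn, a zinc finger factor of Dpp signalling, with 15 candidates. Eip75B had 5 members spread over 3 introns, with 56 candidates. Its other 4 members had signals of 222 to 730, far below the strongest. Hr4, another nuclear receptor of the ecdysone cascade, had 5 with 7 candidates, and ush, a cofactor of GATA factors, had 5 with 24. With 4 members each, the hosts included the forkhead factor CHES-1-like, with 4 candidates, and the helix-loop-helix factor crp, with 14. They also included rdx, an adaptor that targets proteins for degradation, with 30, CG46385 with 25, and CG32264 with 20. Among these hosts, chosen for their number of members, members made up from 8.20% of the members and candidates in Eip75B to 53.8% in Raf, against 6.02% over all genes.

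**Figure D2:**
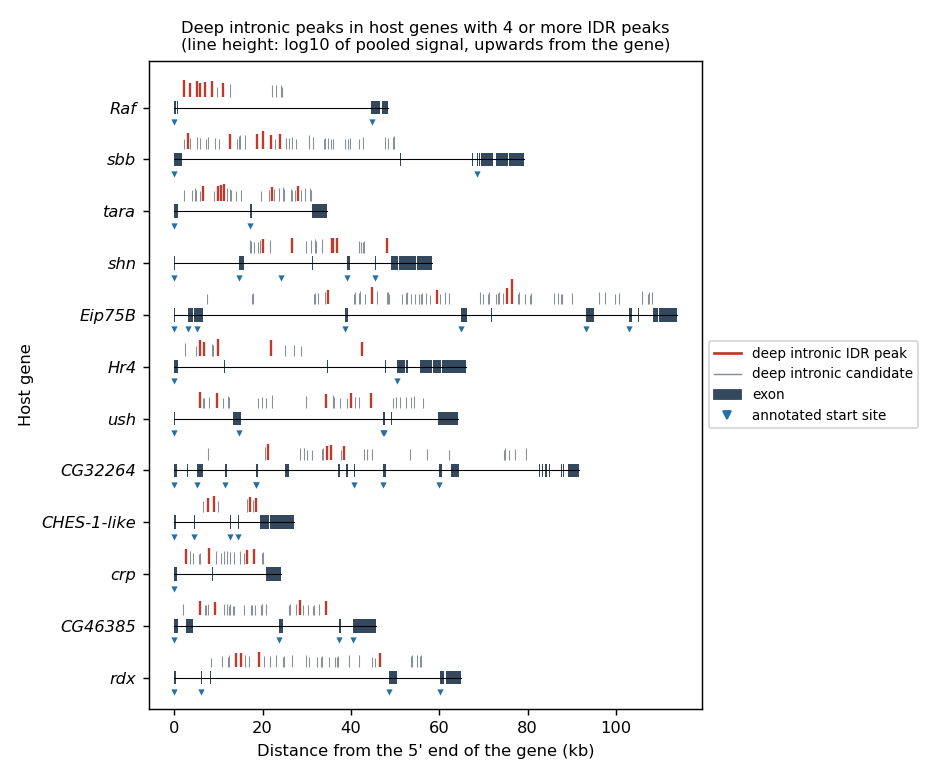
The 12 host genes with 4 or more members, drawn from the 5′ end (0) to the 3′ end in kb, with exons as boxes, annotated start sites of the host itself as triangles, and deep intronic IDR peaks (red) and candidates (grey) as lines whose height is the log10 of pooled signal. The 7 members in Raf sit close together near its 5′ end, and those in Eip75B are spread among 56 candidates.

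Genes with more deep intronic sequence hosted members more often but, from 1 kb up, at a lower density. Of genes with under 1 kb of such sequence, 3 of 1875 hosted a member, 0.160%, and with 1 to 5 kb it was 57 of 1000, 5.70%. With 5 to 20 kb it was 123 of 867, 14.2%, with 20 to 50 kb 91 of 422, 21.6%, and with over 50 kb 57 of 169, 33.7%. Per Mb of deep intronic sequence the order was another one. There were 5.55 members per Mb in genes with under 1 kb, where only 3 members lay, then 25.02 at 1 to 5 kb, 17.2 at 5 to 20 kb, 12.1 at 20 to 50 kb and 5.03 over 50 kb. From 1 kb up, the density of candidates ran the same way, with 268, 240, 203 and 97.5 per Mb. Members as a share of members and candidates were 8.53%, 6.69%, 5.62% and 4.90% in these 4 classes, against 6.02% in all. Hosts with little such sequence included NimA, Wwox and side-IV, of the sidestep family of immunoglobulin proteins, and in all 28 hosts held members and no candidate.

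**Figure D3:**
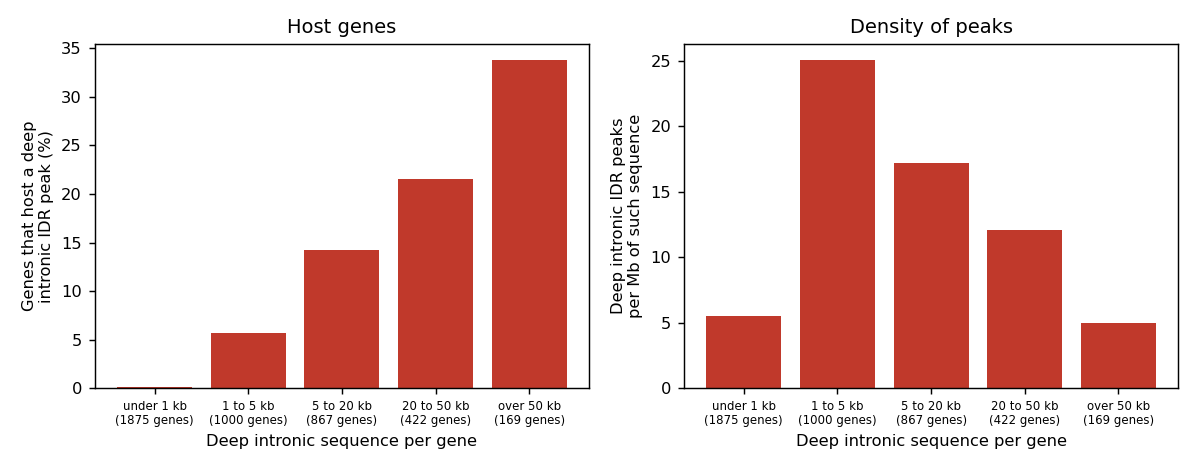
Share of genes that host a deep intronic IDR peak (left, %) and members per Mb of deep intronic sequence (right), by how much such sequence a gene has. The share of host genes is highest, 33.7%, in genes with over 50 kb, where the density is only 5.03 per Mb.

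Intron length differed little between members and candidates. The intron around a member, taken as the gap between the merged exons of the host, had a median of 10726 bp (quartiles 5808 and 20115) against 12025 bp for candidates (6384 and 21851). Introns of 10 kb or more held 252 of 475 members, 53.1%, and 4319 of 7409 candidates, 58.3%, with an odds ratio of 0.809 (0.668 to 0.978). Such introns made up 64.5% of all deep intronic sequence. The interval of the odds ratio included 1 with either library alone, where the ratio was 0.860 without replicate 1 and 0.840 without replicate 2, and it did so against the strongest 25% of the candidates (0.861). The longest intron with a member, 111163 bp, was in bru3, which encodes an RNA-binding protein of the Bruno family. Its peak had 107 in replicate 1 and 408 in replicate 2, and its summit lay 59953 bp from the nearest start site, the farthest of all members.

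First introns held slightly more of the members. A first intron of some host transcript contained 287 members, 60.4%, and 4116 candidates, 55.6%, with an odds ratio of 1.22 (1.01 to 1.48). The interval included 1 without replicate 1 (1.21) and against the strongest 25% of the candidates (1.06). The distance of members to the nearest start site had a median of 4676 bp, against 5415 bp for candidates. Just inside the 2000 bp limit were members in lncRNA:CR44320 at 2001 bp, CG9171 at 2007 bp and CG11498 at 2011 bp. Just outside were IDR peaks in CG31760 at 1994 bp, tna at 1990 bp and kirre at 1985 bp. Their signals, 265, 310 and 301 inside and 359, 223 and 285 outside, overlap.

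**Figure D4:**
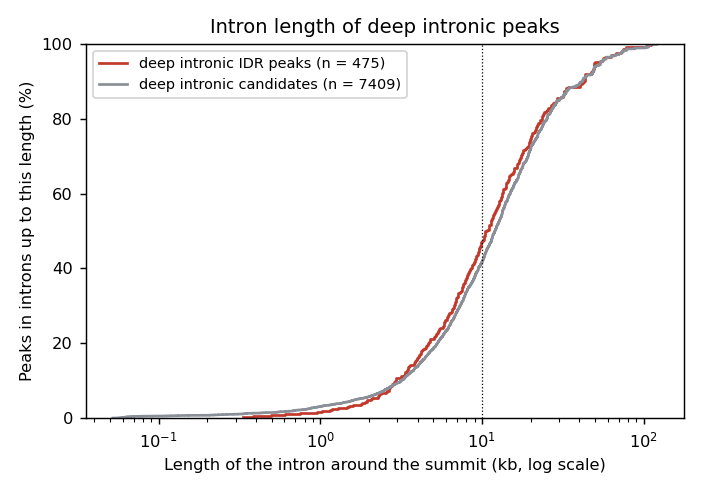
Cumulative share of deep intronic peaks (y, %) by length of the intron around the summit (x, kb, log scale), for 475 members (red) and 7409 candidates (grey); the dotted line marks 10 kb. The curves run close together, with medians of 10726 bp and 12025 bp.

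Members lay near other IDR peaks more often than candidates did. Another IDR summit within 10 kb was found for 318 of 475 members, 66.9% (interval 62.5 to 71.2), and for 3687 of 7409 candidates, 49.8% (48.6 to 50.9). The odds ratio was 2.04 (1.67 to 2.51). Counting only summits of another interval, 312 members had such a neighbour. The odds ratio was 1.53 (1.22 to 1.91) against the strongest 25% of the candidates and 3.38 (2.77 to 4.12) without replicate 2, and the interval lay above 1 under every alternative run. Candidates cannot lie within an IDR interval. Another IDR summit within 1 kb was found for 55 of 475 members and 227 of 7409 candidates, a distance at which this rule bears on the count. The median distance to the nearest other IDR summit was 5868 bp for members and 10077 bp for candidates. For the other 2815 IDR peaks it was 5257 bp, so this nearness was not particular to members.

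When members up to 10 kb apart were joined into runs, 184 members, 38.7%, fell into 78 clusters. A pair made up 62 of these and 3 or more members made up 16, and in 77 clusters all members had the same host. By number of members the Raf cluster was first, followed by sbb with 6 over 20847 bp and shn with 5 over 16609 bp. Then came tara with 4 over 4912 bp, with signals of 286 to 609, CHES-1-like with 4 over 10936 bp and crp with 4 over 15521 bp. Tight groups of 3 were found in side-IV over 1201 bp and in Gug, a corepressor of the Atrophin family, over 2780 bp. Others were in Smr, a corepressor of nuclear receptors, over 3119 bp, and in simj, a subunit of the NuRD chromatin complex, over 4248 bp. At the smallest scale, 45 members had another member within 1 kb. Summits in CG8888, in Vav and in the sodium channel gene para shared an interval pairwise, so the 475 members stand for 472 intervals. By intron, 72 of 381 introns held 2 or more members, 166 in all.

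Genes of 10 lists by function were looked at as hosts, beside 7.64% of all genes with deep intronic sequence and the shares by amount of such sequence given above. The median amount was 1664 bp over all those genes and from 5598 to 38232 bp in the lists, so listed genes had more room for a member. The list of nuclear receptors and other genes of the ecdysone response had 7 hosts among 21 genes with deep intronic sequence, 33.3% (interval 14.6 to 57.0). The listed genes held 17 members and 193 candidates, so that 8.10% of the peaks were members, against 6.02% over all genes. Beside Eip75B and Hr4 the hosts were ftz-f1, a nuclear receptor that acts as a competence factor, and tai, a coactivator of the ecdysone receptor. Also counted were Hr96, E23 and rgn, and a role of rgn in the ecdysone response was not checked. The strongest member had a signal of 273 in ftz-f1, 228 in tai, 194 in Hr96, 191 in E23 and 180 in rgn. In this list 2 genes, Eip75B and Hr4, held 10 of the 17 members.

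Transcription regulators of the nervous system and other tissues had 15 hosts of 55, 27.3% (16.1 to 41.0), with 31 members. Members were 6.77% of the deep intronic peaks in these genes, against 6.02% over all genes. In mam, a coactivator of Notch signalling, the strongest member had 103 in replicate 1 and 436 in replicate 2. In N, the receptor Notch itself, the single member had 86.9 in replicate 1 and 351 in replicate 2. The Hox and patterning factors had 4 hosts of 19, 21.1%: pb, Ubx, hth with 3 members and cad with 1. The member in hth, a partner of Hox proteins, with the highest signal had 271, against the 13280.1 in pb, so that pb and Ubx stand apart in this list.

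The list of signalling receptors and ligands had 10 hosts of 41, 24.4% (12.4 to 40.3). It also holds shn, a zinc finger factor and neither receptor nor ligand, which had 6 of the 17 members. Beside N and shn, aos, a secreted inhibitor of the EGF receptor, had a signal of 464 and vn, a ligand of that receptor, had 275. RNA-binding and splicing regulators had 7 hosts of 29, 24.1%, among them mbl, a splicing factor of the Muscleblind family, with 745, shep with 355 and how with 284. Regulators of small GTPases and kinases had 9 hosts of 43, 20.9%, with Pdk1 at 1095, RhoGAP18B at 402, msn at 381 and for, a cGMP-dependent kinase, at 379. Of the deep intronic peaks, members made up 6.16% in the signalling genes, 4.55% in the RNA-binding genes and 7.03% in this last list. Over all genes the share was 6.02%.

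The remaining lists had lower shares of hosts. Cell adhesion and matrix genes had 7 hosts of 39, 17.9%, with 612 in sdt, a scaffold of apical polarity, 328 in dlp and 303 in stan. Axon guidance genes had 8 of 45, 17.8%, although their median of 38232 bp of deep intronic sequence was the highest of the 10 lists. All 8 had a single member, among them Fas3 at 299, fra, a Netrin receptor, at 281 and Sema1a at 248. Only 2.93% of the deep intronic peaks in axon guidance genes were members, 8 against 265 candidates. Ion channel and synapse genes had 7 of 44, 15.9%, with 538 in para, 471 in nAChRalpha1 and 351 in Ca-alpha1T. Cytoskeleton and muscle genes had 4 of 39, 10.3%, with 567 in Dys, 271 in Zasp52, 239 in chic and 190.4 in cher. Of the deep intronic peaks, members made up between 2.93% and 8.22% over the 10 lists, on both sides of the 6.02% in all.

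The bases around a member were richer in A and T than those around a candidate. In the 201 bp centred on the summit, GC content had a median of 36.3% in members and 39.8% in candidates. To the left by 1000 bp it was 39.8% for members and 40.8% for candidates. At the summit the median was 35.8% in intronic IDR peaks within 2000 bp of a start site and 36.3% in start-site IDR peaks. In intergenic IDR peaks far from start sites it was 37.8%, so low GC content was not particular to members. Of 21 listed motifs, 1 was more frequent at members than at candidates and 2 were less frequent, by intervals that leave out 1. The intervals were not adjusted for the number of motifs, and among 21 some can leave out 1 by counting error alone. All counts below are over both strands. TATAAA, the letters of the TATA box, was found at 157 members, 33.1% (28.8 to 37.5), and at 24.6% of candidates, with an odds ratio of 1.51 (1.23 to 1.85). In the windows to the left it was found at 23.6% for members and 24.0% for candidates. The E-box CAGCTG was found at 4.42% of members and 8.13% of candidates (odds ratio 0.523, 0.318 to 0.817), and CACATG at 7.16% and 10.0% (0.693, 0.470 to 0.992). With 50 bp on each side of the summit CACATG no longer left out 1 (0.689, 0.386 to 1.15), and with 200 bp neither E-box did, at 0.897 (0.697 to 1.14) for CACATG and 0.857 (0.644 to 1.12) for CAGCTG. The part of base composition in these differences was not tested.

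For the other listed motifs the interval of the odds ratio included 1, and 4 of them are given here. The DREF motif TATCGATA, which ranked first among the words of start-site IDR peaks, was found at 1 of 475 members, 0.211% (0.00533 to 1.17), and at 0.445% of candidates. The promoter motif GGTCACACT was found at 0 members, where the exact interval reaches 0.774%, and at 0.108% of candidates. Letters of the GAGA factor, GAGAGAG, were found at 3.58% of members and 3.04% of candidates. CAGGTAG, bound by the early activator Zelda, was found at 0.632% of members and 0.850% of candidates.

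Words learnt on start-site peaks were slightly more frequent at members than at candidates. The 20 words of 8 bases that ranked highest in 2033 IDR peaks within 500 bp of a start site, against windows 1000 bp to the left of them, matched 206 members, 43.4% (38.9 to 48.0). They matched 36.7% of candidates (35.6 to 37.8), with an odds ratio of 1.32 (1.09 to 1.60), which was 1.05 (0.849 to 1.3) against the strongest 25% of candidates. The share was 54.3% of the 855 intronic IDR peaks within 2000 bp of a start site and 65.7% of the start-site peaks, but the start-site peaks chose the words and include 451 of the 855, so these shares are no comparison. To the left of the summit the share was 33.5% for members and 35.2% for candidates. Several of the 20 words, such as TTTAAAAA and ATTTTTAA, hold only A and T, and members were richer in these bases than candidates. The part of base composition in this difference was not tested.

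Words learnt on the 329 strongest IDR peaks outside the class gave a similar picture, and this list was added after the data had been seen. At least 1 of the 20 words matched 179 members, 37.7%, and 28.7% of candidates, with an odds ratio of 1.5 (1.23 to 1.83). Some words of this list too, such as ATTTTAAA and TTTTAAAA, hold only A and T, and the part of base composition was not tested. The first word, AGCTTTTG, was found at 23 members, 4.84% (3.09 to 7.18), against 135 candidates, 1.82% (1.53 to 2.15). The odds ratio was 2.74 (1.66 to 4.34), and 2.00 (1.14 to 3.41) against the strongest 25% of candidates. In the windows to the left it was found for 1.26% of members and 1.16% of candidates. Start-site IDR peaks held it at 3.34% and intergenic IDR peaks far from start sites at 9.56% (5.19 to 15.8). Both classes include peaks that chose the word, and members took no part, so these shares are no comparison with members. Among the 41 members above 2 times the median signal 3 had the word, and among the other 434 members 20 had it.

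The core CACTG was singled out after the words of members on 2 of the arms had been seen, 3 of which share it, and it was counted on the remaining arms. There it was found at 156 of 314 members, 49.7% (44.0 to 55.4), and at 1686 of 4933 candidates, 34.2% (32.9 to 35.5). The odds ratio was 1.90 (1.5 to 2.41), and 1.46 (1.13 to 1.89) against the strongest 25% of candidates. In windows to the left it was found for 29.3% of members and 27.5% of candidates. Start-site IDR peaks held it at 43.2% (40.4 to 46.0) and intronic IDR peaks near start sites at 43.1% (38.9 to 47.4), intervals that overlap that of the members. The longer words were rare on these arms: TCAGTGCA and CACTGAGA were each found at 6 of 314 members, 1.91%, against 1.97% and 2.35% of candidates. CTCAGTGC was found at 2.23% of members and 1.62% of candidates.

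**Figure D5:**
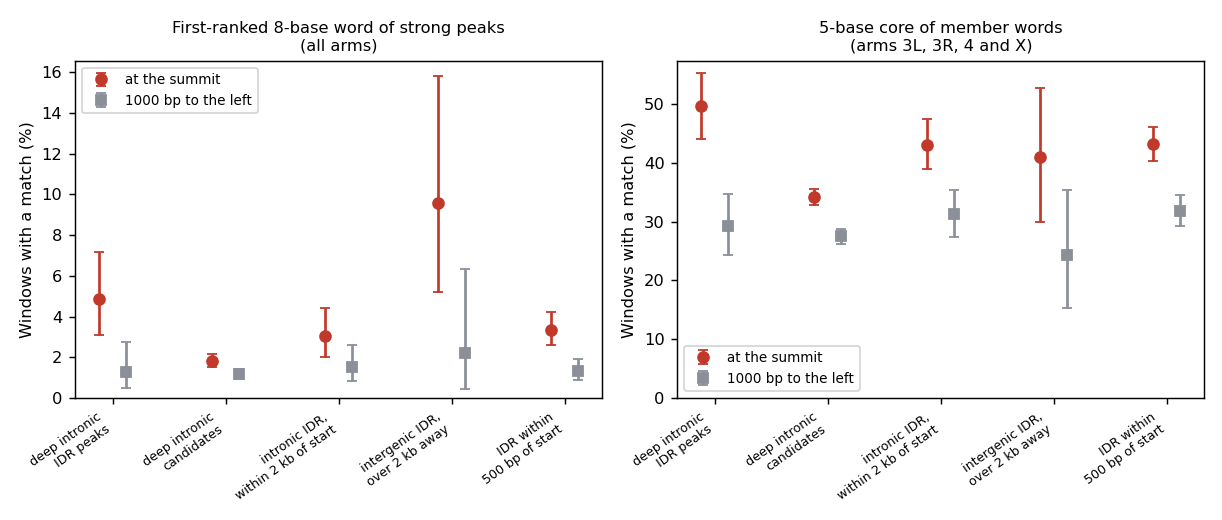
Share of 201 bp windows (y, %) that hold AGCTTTTG on all arms (left) or CACTG on the arms other than those used to choose it (right), for 5 classes of peaks, at the summit (red) and 1000 bp to the left (grey), with 95% exact binomial intervals. At members AGCTTTTG stands at 4.84% against 1.82% at candidates, and CACTG at 49.7% against 34.2%.

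On each of the 6 arms the interval of the odds ratio included 1. Of the members 24.0% lay on X, against 20.7% of candidates (odds ratio 1.21, 0.964 to 1.51), and 22.7% on 3R against 24.2% (0.922, 0.732 to 1.15). On arm 4 lay 0 of 475 members, where the exact interval reaches 0.774%, and 21 candidates, 0.283%. Summits in lower-case sequence of the assembly, where repeats are masked, made up 20.8% of members and 21.6% of candidates (odds ratio 0.954, 0.751 to 1.20).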

How the data were processed

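Per the labels, 2 biological replicates of 1 group had 1 library each, with fragments sonicated to 200 to 800 bp. The authors deposited narrowPeak lists per library, for the pooled libraries and after the IDR filter. The signal of each peak and its summit offset (a position, another unit) are as deposited. The sources used here do not give the peak caller, its scaling of signal, the IDR threshold or the read depth. The dm6 lists on 6 arms were used, which left out 1 pooled peak.

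Start sites, transcripts and exons came from Ensembl release 115 for 18164 genes, and 5809 transposable element records were not counted as genes. Summits were classed as described above. Candidates were those pooled peaks with no overlap of 1 bp or more with the IDR list. A host is the gene that spans the summit, protein-coding first, then the shortest. Library signal is that of the strongest peak covering the summit. Windows were 100 bp on each side of the summit, or the same centred 1000 bp to the left. Shares have 95% exact binomial intervals and odds ratios 95% conditional exact intervals. There is no p-value, because the 2 libraries form 1 group. Steps were tested on simulated data.

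Named genes are the hosts of the 20 strongest members, the 10 hosts with most members (and 2 tied with the last of these), up to 4 hosts of each gene list by signal, those next to the 2000 bp limit, and that of the longest intron. Further hosts, and the tight clusters, were chosen after their values were seen. The members, gene lists and motifs were chosen with earlier results of these data known. Alternatives were other distances, windows, lists, intron definitions and candidates, and each library left out. Tools were Python 3.11.15, numpy 2.4.6, pandas 2.3.3, scipy 1.17.1 and matplotlib 3.10.9.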

Additional observations from a re-analysis of the deposited data

How the results depend on the processing

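Of 49 alternative odds ratios, 32 kept their direction and their side of 1, 17 kept the direction with an interval that includes 1, and 0 reversed. Of 11 alternative counts, 8 stayed within 1.5 times and 3 moved further. The number of members was 217 beyond 5000 bp from start sites and 181 in the stronger 50% of the IDR list, in place of 475, both by construction; counting transposable element records as genes gave 457. Motifs with an interval off 1 were 5 in place of 3 with 50 bp on each side of the summit. For introns of 10 kb or more the odds ratio was 0.834 beyond 5000 bp, 0.861 against the strongest 25% of candidates, 0.790 in the stronger 50% of the list, 0.860 with the longest annotated intron, and 0.843 or 0.863 with limits of 5 or 20 kb, all with an interval that includes 1; without replicate 1 or 2 it lay between 0.840 and 0.860. For first introns it was 1.24 beyond 5000 bp and 1.06 against the strongest 25%, and 1.21 to 1.62 with a library left out. For words of start-site peaks it was 1.23 beyond 5000 bp, 1.05 against the strongest 25% and 1.19 in the stronger 50%. The cause was not tested. The odds ratio of a neighbouring IDR summit lay between 1.53 and 3.38 and that of the deep intronic share between 0.307 and 0.548 over the alternatives run. No paired analysis was possible because there is 1 group. Depth is unknown, which limits what can be said of weak peaks.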
